A study of Mus musculus with 6 samples.

Results

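The genes of lipid droplet storage and lipolysis examined here were these 9: Mgll, Pnpla2, Lpl, Dgat1, Dgat2, Plin2, Plin1, Cidec and Abhd5. They were chosen by name, and every probe set whose platform annotation named exactly 1 gene, and that gene one of the 9, was taken. This gave 17 probe sets of 44935 in all. They covered 8 of the 9 genes, with 4 probe sets for Mgll, 3 for Abhd5, 2 each for Pnpla2, Lpl, Dgat1 and Dgat2, and 1 each for Plin2 and Cidec. For Plin1, a perilipin gene, no probe set met the rule and no value is given.

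Lipid droplets are the stores of neutral lipid that steroid-producing cells draw on, and in the adrenal cortex they hold mainly cholesterol esters, whereas in fat cells they hold triglyceride. Triglyceride is made by the acyltransferases DGAT1 and DGAT2, kept behind coat proteins of the perilipin family, and broken down in steps: ATGL (gene Pnpla2), switched on by its activator CGI-58 (gene Abhd5), releases the first fatty acid, and monoacylglycerol lipase (gene Mgll) releases the last. Monoacylglycerol lipase also degrades the endocannabinoid 2-arachidonoylglycerol. Lipoprotein lipase (gene Lpl) works outside the cell and frees fatty acids from circulating lipoproteins, and CIDEC promotes the fusion of droplets in fat cells.

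The values came from whole adrenal glands of male mice aged 3 months on a C57BL6x129Sv background. All animals of both groups carried Per2Brdm1 and Cry1-/-, a combination that the labels call clock-deficient, and no animals with a working clock were analysed here. After 2 weeks under light-dark entrainment the mice were moved to constant darkness. Glands were collected at 46 h or at 54 h, counted from lights off, with 3 arrays at each time (named replicate 1, B and C). The labels do not say whether an array held 1 animal or a pool, so p-values measure the spread between these arrays, which may be partly technical. Median intensity per array lay between 204 and 217 units, and the number of arrays limits the precision.

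The tissue was checked against marker lists. All 9 adrenal cortex markers and 7 of the 8 medulla markers had a probe set past the filter on low values, with none at 0. The summed intensity of the cortex list ran from 124219 to 131292 units at 46 h and from 118525 to 129810 at 54 h. That of the medulla list ran from 57368 to 61241 and from 55044.5 to 59502.5 units. These ranges overlapped, but all 9 cortex and all 7 medulla markers had a negative change. The median log2 changes were -0.05 and -0.08, against -0.02 over all genes, and 0 markers of either list passed. The glands also carried signal of other cell types. All 10 adipocyte markers measured were past the filter, with a summed intensity of 28321 to 34918 units at 46 h and 29988 to 37747 at 54 h, and these ranges overlapped. The summed intensity of the 8 macrophage markers was lower on every 54 h array (17442 to 18259.8 against 19553 to 20328 units). Of these markers 3 (Lyz2, C1qb and C1qc) were lower without overlap, as were 9.05% of all probe sets tested. The other 5 overlapped, and 3 of those (Csf1r, Adgre1 and C1qa) had a positive change. Of the 8 endothelium markers 6 had a negative and 2 a positive change, and their summed intensities overlapped between the times. Summed intensities of 3 further lists were higher on every 54 h array: liver (8219.85 to 12272 against 3775 to 5913 units, 9 markers, 8 of them past the filter), skeletal muscle (1912 to 2210.0 against 1465 to 1564 units, 6 markers, 3 past the filter) and red cell (1825 to 2278 against 1323 to 1789.6 units, 4 markers, 3 past the filter). In the last list Hbb-b2, a beta globin gene, passed (limma adjusted p = 0.0288) and rose by 1.04 ± 0.12 SE on the log2 scale, while Hba-a1, an alpha globin gene, had -0.30 ± 0.30 SE. On the liver list Serpina1b (1.10 ± 0.14 SE) and Cyp3a11 (1.15 ± 0.16 SE) passed as higher (limma adjusted p = 0.0343 and 0.0424). Of the 8 liver markers past the filter 7 were higher without overlap, and the median log2 change was 1.04. By limma before adjustment 7 were higher at p under 0.05, where 4.13% of 13780 genes were. Most of the skeletal muscle sum came from Eno3, with means of 1078 units at 46 h and 1533 at 54 h (0.50 ± 0.09 SE). Myl1 had 0.40 ± 0.13 SE, and Ckm, which overlapped, -0.007 ± 0.13 SE. No skeletal muscle marker passed. In whole glands a smaller number of cells of a type and less RNA per cell cannot be told apart.

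Of these genes, 6 of 9 had a promoter entry in the RefSeq table of build GRCm38.p6. The 250 bases before the start site are shown for Mgll, the gene with a probe set past the test, at the first of its annotated starts, and for Plin2 and Pnpla2, a droplet coat gene and a lipase gene whose probe sets did not pass. The Mgll window lies at chr6:88724162-88724411 on the + strand, the Plin2 window at chr4:86670060-86670309 on the - strand and the Pnpla2 window at chr7:141454938-141455187 on the + strand. Capitals mark matches to the motifs searched, on either strand.
Mgll: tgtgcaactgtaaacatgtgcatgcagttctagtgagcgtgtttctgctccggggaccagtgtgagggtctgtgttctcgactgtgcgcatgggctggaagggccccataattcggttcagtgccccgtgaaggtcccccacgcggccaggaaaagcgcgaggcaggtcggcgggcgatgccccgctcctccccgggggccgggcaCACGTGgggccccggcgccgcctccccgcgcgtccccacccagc
Plin2: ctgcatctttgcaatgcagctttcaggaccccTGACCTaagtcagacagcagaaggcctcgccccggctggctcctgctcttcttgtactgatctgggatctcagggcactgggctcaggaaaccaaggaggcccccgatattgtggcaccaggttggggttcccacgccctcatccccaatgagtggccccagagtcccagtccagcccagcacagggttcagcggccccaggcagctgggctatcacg
Pnpla2: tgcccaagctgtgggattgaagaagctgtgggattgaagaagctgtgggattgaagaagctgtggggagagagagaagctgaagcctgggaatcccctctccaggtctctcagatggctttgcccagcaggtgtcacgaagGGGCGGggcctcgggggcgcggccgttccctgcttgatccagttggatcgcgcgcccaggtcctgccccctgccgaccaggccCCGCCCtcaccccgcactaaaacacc
The searched motifs were the E-box CACGTG, the D-box TTANGTAA, the cAMP response element TGACGTCA, the nuclear receptor core site AGGTCA, the GC box GGGCGG, the TATA box TATAAA and the sterol element TCACNCCAC. The Mgll window held 1 E-box, the sequence bound by CLOCK and BMAL1 among other factors, at positions -44 to -39 from the start; 6.02% of 32851 mouse promoter windows of this length held one. The window of the second annotated Mgll start, at chr6:88724454-88724703, held no E-box and 1 GC box at -121 to -116. The Plin2 window held 1 nuclear receptor core site at -218 to -213 (in 14% of windows), and the Pnpla2 window held 2 GC boxes, at -109 to -104 and -26 to -21 (in 32.7% of windows). The Abhd5 window held 1 nuclear receptor core site and 1 GC box, and the windows of Cidec and Plin1 held no match. Such a match describes the letters only; no binding was measured.

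Mgll, the lipase of the last step, was the only one of the 8 measured genes with a probe set past the test. Its probe set 1426785_s_at read 4669, 4414 and 4793 units at 46 h and 3571, 3364 and 3393 at 54 h, where values of a time are given here and below in the order of replicates 1, B and C. Every 54 h array lay below every 46 h array. The mean fell from 4625 ± 193 to 3443 ± 112 units (SD, n = 3 each), which is 1.34-fold (log2 change -0.42 ± 0.06 SE, 95% confidence interval -0.55 to -0.30, limma adjusted p = 0.0343). Changes are 54 h minus 46 h on log2(intensity + 16), tested in limma over 26961 probe sets past the filter with Benjamini-Hochberg adjustment at 0.05. Of those, 0.115% passed in either direction and 0.0556% passed as lower, so 1 of the 16 lipid droplet probe sets past the filter stood against that background; the gene list was drawn up with earlier results of these arrays known, and the count is a description.

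The brightest Mgll probe set, 1450391_a_at, read 4898, 4367 and 4788 units at 46 h and 4263, 3482 and 3679 at 54 h. The times again did not overlap, but 54h replicate 1 lay only slightly under the lowest 46 h array. Its log2 change was -0.30 ± 0.08 SE, with means of 4685 ± 280.1 and 3808 ± 406 units (SD, n = 3 each), and it did not pass (limma adjusted p = 0.253, unadjusted p = 0.00436). Probe set 1453836_a_at read 1513, 1415 and 1736 units at 46 h and 1181, 1204 and 1284 at 54 h, likewise without overlap, and its log2 change of -0.34 ± 0.09 SE did not pass (limma adjusted p = 0.275). The dimmest, 1431331_at, read 267, 257 and 234 units at 46 h and 241, 205 and 232 at 54 h, with 2 of 3 arrays at 54 h below all at 46 h and a change of -0.15 ± 0.12 SE in log2 units (limma adjusted p = 0.714). All 4 Mgll probe sets therefore had a negative change, between -0.15 and -0.42.

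These probe sets read the same RNA on the same arrays and are not replicates. By Affymetrix naming, _a_at marks a set that reads alternative transcripts of 1 gene and _s_at a set that can read several transcripts, so the probe sets may cover different Mgll transcripts. Within each array the log2 ratio of 1426785_s_at to 1450391_a_at was -0.07, 0.02 and 0.00 at 46 h and -0.25, -0.05 and -0.12 at 54 h. The ratio overlapped between the times, and the difference of -0.12 between the 2 changes was not resolved (exact permutation test, two-sided p = 0.2, where 3 against 3 arrays allow 0.1 at the smallest). With Mgll read as the mean over its 4 probe sets the log2 change was -0.30 ± 0.07 SE and did not pass (limma adjusted p = 0.191).

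The size of the Mgll change varied less across settings than its call, in part because some settings cannot alter it. The other filters, the fit without an intensity trend and the robust fit use the same values and leave it at -0.42. Over 15 other settings, with the replicate block counted apart, the log2 change of 1426785_s_at stayed between -0.40 and -0.46, and the limma adjusted p lay between 0.000748 and 0.261, past 0.05 in 9 of them. It did not pass with arrays centred on their medians (limma adjusted p = 0.0664) or without an intensity trend in the variance (0.261). It also did not pass when any 1 array of 46 h was left out (0.204 for replicate 1, 0.0710 for B and 0.0795 for C) or 54h replicate C was (0.253). The summed macrophage, liver, skeletal muscle and red cell markers also did not overlap between the times, as given above, though single markers of each list did, and their part in the Mgll change was not tested.

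**Figure D1:**
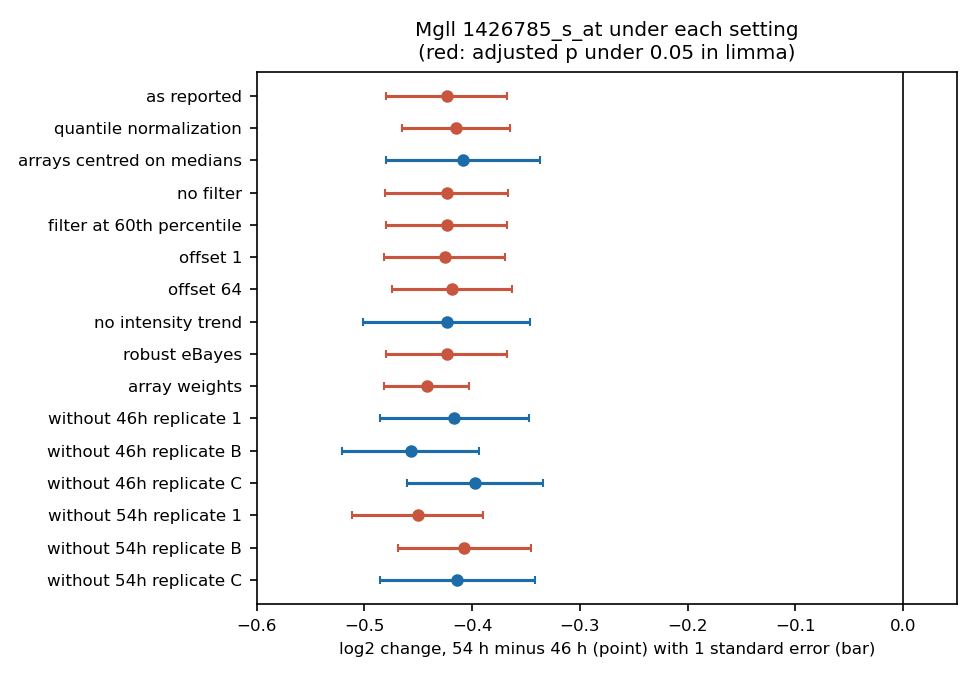
Log2 change of Mgll 1426785_s_at (points) with 1 standard error (bars) as reported and under 15 other settings, the replicate block not among them; red marks a limma adjusted p under 0.05. The change stays between -0.40 and -0.46 while the call is lost in 6 of the 15, and also with the replicate block. Settings that alter only the filter or the variance model cannot move the point.

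**Figure D2:**
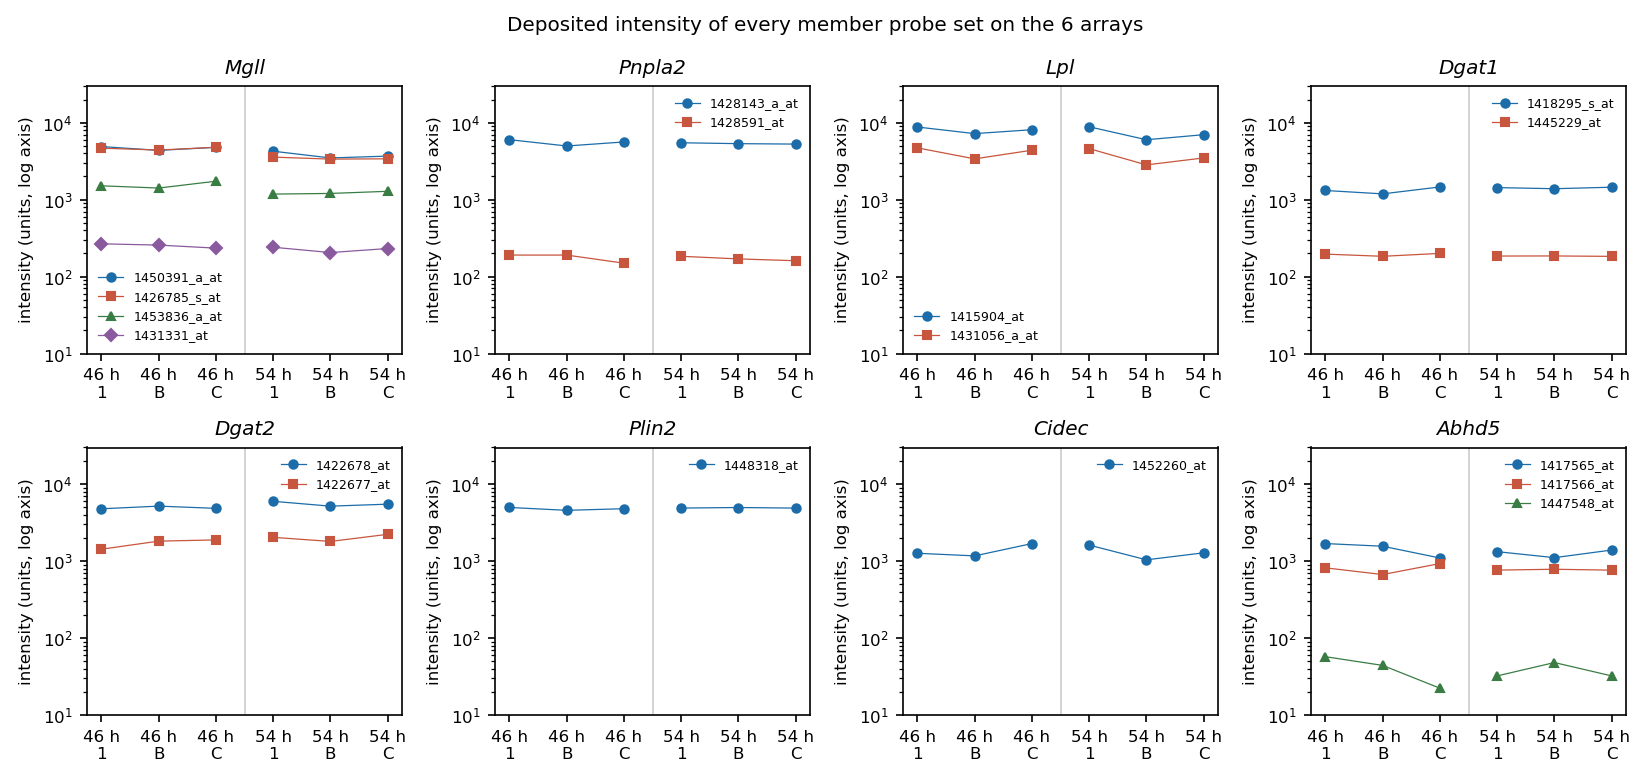
Deposited intensity (log axis, units) of all 17 probe sets, 1 panel per gene, on the 3 arrays of 46 h and the 3 of 54 h; lines join the points of 1 probe set within a time and mark no order. The upper 3 Mgll probe sets are lower on every 54 h array than on any 46 h array, whereas the times overlap for all other genes.

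Among the genes that start lipolysis, Pnpla2, which encodes ATGL, read 6019, 4983 and 5620.2 units at 46 h and 5488, 5342 and 5273 at 54 h in probe set 1428143_a_at. The 54 h arrays lay inside the 46 h range. The log2 change was -0.04 ± 0.07 SE, with a 95% interval of -0.19 to 0.11 (limma adjusted p = 0.885). The dim Pnpla2 probe set 1428591_at ranged from 149 to 190.3 units over the 6 arrays, and its log2 change was -0.03 ± 0.14 SE (limma adjusted p = 0.956).

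Abhd5, which encodes the activator of ATGL, had probe sets that disagreed. The brightest, 1417565_at, read 1692, 1563 and 1099 units at 46 h and 1328, 1109.9 and 1394 at 54 h, while 1417566_at read 818, 669.7 and 929.8 at 46 h and 765, 784 and 764 at 54 h. On 46h replicate C the first gave its lowest value and the second its highest. The log2 changes were -0.16 ± 0.16 SE and -0.05 ± 0.12 SE (limma adjusted p = 0.773 and 0.925). Leaving out 46h replicate 1 brought that of 1417565_at to -0.04, and leaving out 46h replicate C brought it to -0.35. After centring each on its own mean, the root mean square difference between them was 0.32 log2 units. Over 14974 pairs of probe sets that shared a gene and passed the filter the median of that measure was 0.16 and the upper quartile 0.23. The third Abhd5 probe set, 1447548_at, read 22.3 to 57.3 units and was the 1 member probe set under the filter, so it was not tested.

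Of the final acyltransferases, Dgat2 had the larger positive change, without passing. Probe set 1422678_at read 4794, 5189.6 and 4855 units at 46 h and 5992, 5185 and 5502 at 54 h. On 2 of 3 arrays at 54 h it lay above all at 46 h, and 54h replicate B lay within them. The log2 change was 0.17 ± 0.06 SE, with means of 4946 ± 213 and 5559.9 ± 406 units (SD, n = 3 each; limma adjusted p = 0.421, unadjusted p = 0.0249). The second set, 1422677_at, read 1429, 1819.9 and 1887 units at 46 h and 2039.5, 1804 and 2231 at 54 h, with the same 2 arrays above, and its log2 change was 0.25 ± 0.12 SE (limma adjusted p = 0.532). It was 0.12 without 46h replicate 1 and 0.50 with array weights, the one setting in which it passed (limma adjusted p = 0.0144). With array weights 3466 of 26961 probe sets passed over the whole table. The 95% interval of 1422678_at, 0.03 to 0.31, excluded 0 before adjustment, and that of 1422677_at, -0.02 to 0.51, did not.

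Dgat1 read 1315, 1188 and 1462 units at 46 h and 1434, 1387 and 1451 at 54 h in 1418295_s_at, with the 54 h arrays inside the 46 h range. The log2 change was 0.11 ± 0.09 SE (95% interval -0.10 to 0.32, limma adjusted p = 0.738), and leaving out 1 array gave 0.04 to 0.19. The dim set 1445229_at, at 183 to 200.1 units, had -0.06 ± 0.11 SE (limma adjusted p = 0.899). The Dgat1 probe sets thus differed in the sign of a change that neither resolved.

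Plin2, the perilipin that coats droplets in steroid-producing and most other cells, varied least among the 8 genes when each was read at its brightest probe set, with an SD of 0.05 log2 units over the 6 arrays. It read 4987, 4576 and 4803 units at 46 h and 4896, 4978 and 4891 at 54 h. Its log2 change was 0.04 ± 0.05 SE, and the 95% interval of -0.07 to 0.15 (limma adjusted p = 0.839) spans 0.951-fold to 1.11-fold.

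Cidec, the droplet fusion gene of fat cells, varied most on the same reading, with an SD of 0.27 log2 units over the arrays; the second Lpl probe set, 1431056_a_at, had 0.29. It read 1265, 1171 and 1692 units at 46 h and 1617, 1041 and 1283 at 54 h, so the times overlapped. The log2 change was -0.07 ± 0.17 SE (95% interval -0.46 to 0.32, limma adjusted p = 0.926). It changed sign to 0.09 without 46h replicate C and to 0.08 without 54h replicate B.

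Lpl, the lipase of the vessel wall, had 2 probe sets with closely similar patterns. Probe set 1415904_at read 8789.65, 7215 and 8108 units at 46 h and 8853, 6005 and 6985 at 54 h, and 1431056_a_at read 4708, 3388 and 4389.7 at 46 h and 4601, 2829 and 3484 at 54 h. In each time replicate 1 was highest and replicate B lowest in both sets. The root mean square difference between the centred sets was 0.08 log2 units, below the lower quartile of 0.11 over all such pairs. The log2 changes were -0.16 ± 0.12 SE and -0.21 ± 0.17 SE (limma adjusted p = 0.722 and 0.729), and neither passed in any setting tried. Without 54h replicate 1 they were -0.31 and -0.39, and without 54h replicate B -0.03 and -0.04.

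Several fat cell markers were low on the same arrays as Lpl and Cidec. Adipoq, the adipocyte hormone adiponectin, read 7848, 6796 and 7826 units at 46 h and 8218, 5796 and 6978 at 54 h. Fabp4, the fatty acid carrier of fat cells, and Retn, which encodes resistin, were also lowest on replicate B of each time, as were both Lpl sets, Cidec and Plin4, a perilipin of fat cells. Of the 10 adipocyte markers 5 were lowest on replicate B at both times, of the 16 lipid droplet probe sets past the filter 6 (2 each of Mgll and Lpl, 1 each of Cidec and Dgat1), and of all 26961 probe sets 9.59%. This was noticed in the data and is given as a description. Replicate names did not pair the arrays (correlation of deviations -0.41 for B), so the shared letter is no link between them. The 2 sets of a gene read the same RNA. Cidea, a droplet protein of brown fat, was among the 5 but was higher on every array of 54 h, at 2521, 2401 and 2579 units against 2002, 1151 and 1667 at 46 h. Other markers of the list went the other way on replicate B, but at 1 of the times only. Slc7a10 (394 units) and Lep (190 units) had their highest 46 h value on 46h replicate B, while Slc7a10 was lowest on 54h replicate B (256 units). Acvr1c (566 units) had its highest 54 h value on 54h replicate B and its lowest 46 h value on 46h replicate B (303 units). Ucp1 was lowest on replicate B at 46 h (1965 units) but not at 54 h (4407 units). None of the 10 markers passed limma after adjustment (0 of 10). Before it 3, Cidea, leptin (Lep) and the brown fat uncoupling protein Ucp1, were higher at p under 0.05, against a background of 4.13% of genes. The part of adipose tissue in the values of Lpl and Cidec was not tested.

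**Figure D3:**
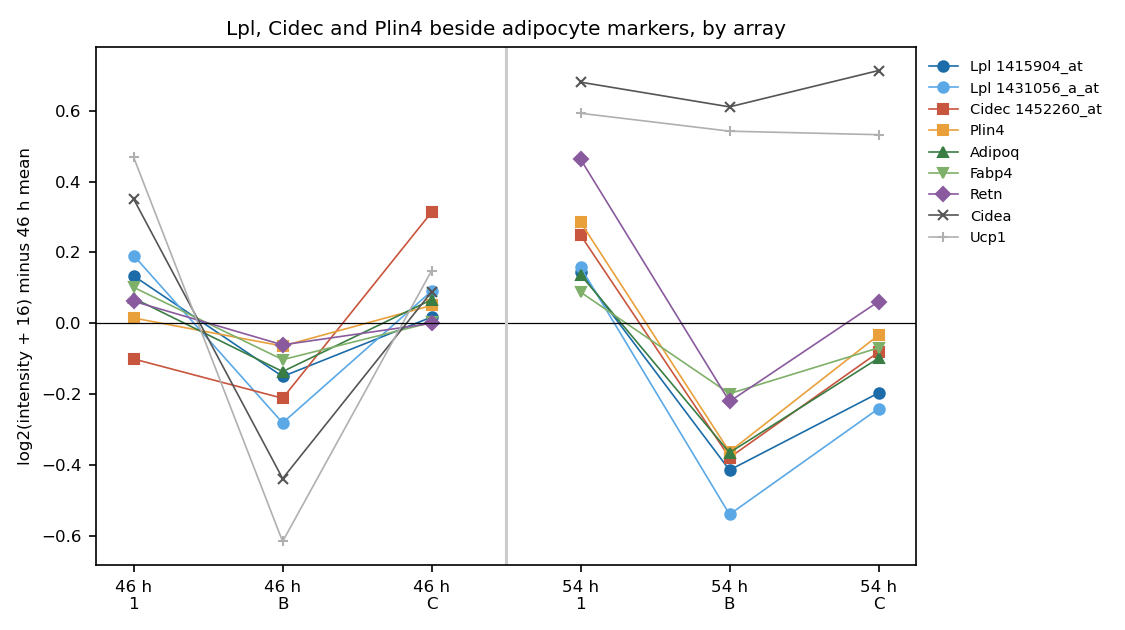
Difference of log2(intensity + 16) from the mean of the 46 h arrays for Lpl, Cidec, Plin4 and 5 adipocyte markers on each array; lines join points of 1 probe set within a time. Lpl, Cidec, Plin4, Adipoq, Fabp4 and Retn are lowest on replicate B of each time, while Cidea and Ucp1 sit above their 46 h means on all 3 arrays of 54 h.

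By root mean square difference of centred log2 values over the 6 arrays, the genes most like Cidec among 13779 were Dram1 (0.06), Nol4l (0.07), Cpeb3 (0.07), Eif4ebp1 (0.08) and Klhl24 (0.08). Dram1, for example, read 803, 726 and 1004 units at 46 h and 1014, 696 and 848 at 54 h. Adipoq ranked 176 by this measure, Lpl 679, Retn 1243 and Fabp4 1524. The order rests on 6 arrays and is a description.

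Across the 16 probe sets past the filter, 12 had a negative and 4 a positive change, with a median log2 change of -0.07 against -0.02 over all probe sets tested. At p under 0.05 before adjustment, limma gave 3 that were lower, all of Mgll, against a background of 5.75%, and 1 that was higher, of Dgat2, against 4.34%. That background depends on the scaling: before adjustment limma gave 1170 higher and 1549 lower probe sets on the deposited scale, 1152 and 1022 with arrays centred on medians, and 1590 and 1529 after quantile normalization. The times did not overlap for 3 probe sets, all lower and all of Mgll, where 9.05% of all probe sets were lower without overlap. In both counts the 3 Mgll sets read the same RNA and stand for 1 gene. Of 13780 genes read by their brightest probe set, 6.2% were lower by limma at p under 0.05 before adjustment. The 95% intervals of all 16 excluded a 2-fold change, and 15 excluded a 1.5-fold change; the exception was Lpl 1431056_a_at, whose interval ran from -0.59 to 0.17.

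**Figure D4:**
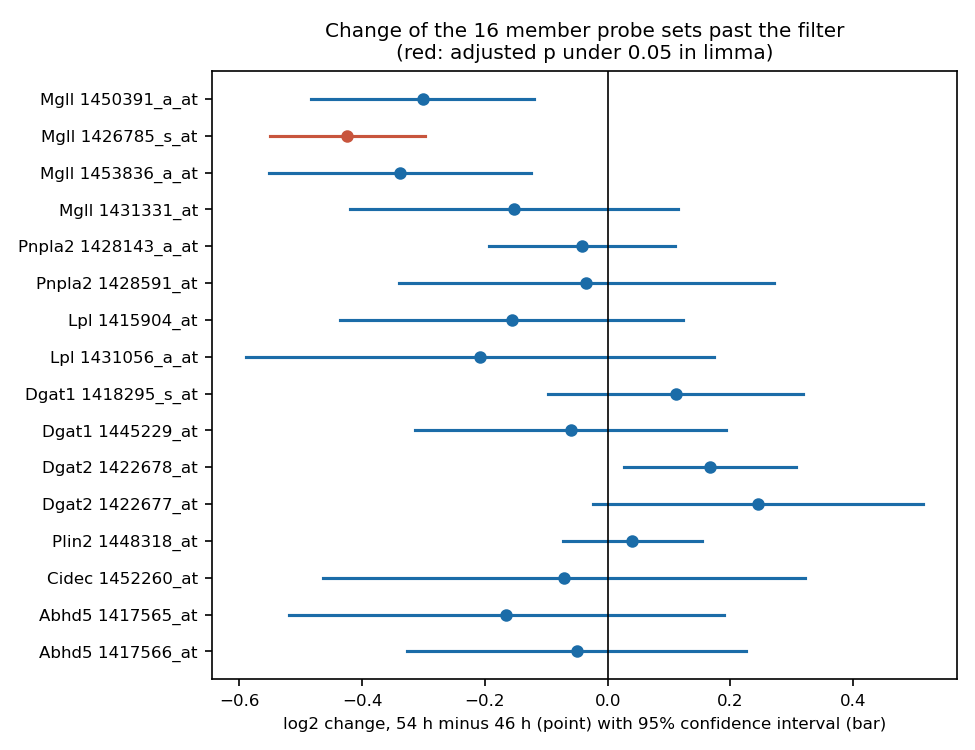
Log2 change from 46 h to 54 h of the 16 probe sets past the filter (points) with 95% confidence intervals from limma (bars). Mgll 1426785_s_at, in red, is the one with an adjusted p under 0.05, and the 4 Mgll points all lie left of 0.

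The wider pathway was read from 4 lists on droplet coats, triglyceride synthesis, lipolysis and lipoprotein lipase with fatty acid uptake and from 1 list on endocannabinoids, each gene from its brightest probe set. Of 68 genes on the lists 63 were past the filter. None passed limma over all probe sets (0 of 63), against 0.109% of 13780 genes read in this way. At p under 0.05 before adjustment limma gave 8 that were higher (background 4.13%) and 4 lower (background 6.2%), and the median log2 change was -0.02, as over all genes. With array weights 11 of them passed, where 3466 of 26961 probe sets passed over the whole table. Gpam alone passed without 54h replicate 1, where 66 probe sets did over the whole table.

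Differences among triglyceride synthesis genes had both signs, and none passed the test. Gpam, the acyltransferase of the first step, read 4379, 4172 and 4212 units at 46 h and 3745, 2789.8 and 3063 at 54 h, without overlap, and its log2 change was -0.42 ± 0.10 SE (limma adjusted p = 0.180). Its other probe set was also lower on every 54 h array, with a change of -0.21 ± 0.11 SE. Of the later steps, Agpat2, which adds the second fatty acid, had 0.27 ± 0.08 SE and Lpin1, the phosphatidate phosphatase, 0.22 ± 0.07 SE, both higher on every 54 h array (limma adjusted p = 0.280 and 0.334). Lpin3, a relative of Lpin1, had -0.20 ± 0.11 SE. Of the 13 genes 3 were higher and 1 lower by limma at p under 0.05 before adjustment, against backgrounds of 4.13% and 6.2% of 13780 genes.

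Of the 17 coat and biogenesis genes past the filter 2 were higher at that level (background 4.13%) and 1 lower (background 6.2%), with a median log2 change of -0.04. Cidea, at 0.67 ± 0.17 SE in log2 change, was higher on every 54 h array (limma adjusted p = 0.212); it is also on the adipocyte list. Cav1, the caveolar coat protein, had 0.40 ± 0.15 SE with overlap. Plin5, the perilipin of oxidative tissues, had -0.25 ± 0.10 and -0.26 ± 0.11 SE in its 2 probe sets, which overlapped between times, and Plin3 had -0.16 ± 0.09 SE.

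Of the 14 lipolysis genes past the filter 0 were higher (background 4.13%) and 1, Mgll, lower (background 6.2%) by limma before adjustment, and 0 passed after it. Pnpla3, a relative of ATGL, had 0.32 ± 0.15 SE at 169 to 258 units, G0s2, the inhibitor of ATGL, -0.15 ± 0.09 SE, and Prkaca, the catalytic subunit of protein kinase A, 0.07 ± 0.04 SE, with -0.07 ± 0.06 SE in its other probe set. Ces1d, a carboxylesterase of droplets, read 2829, 2334 and 2648 units at 46 h and 5012, 2277 and 3621 at 54 h, with 54h replicate 1 highest and 54h replicate B lowest, and its change was 0.41 ± 0.23 SE. Its other probe sets had 0.41 ± 0.23 and -0.02 ± 0.16 SE. Lipe, the hormone-sensitive lipase that also hydrolyses cholesterol esters, had -0.0019 ± 0.098 SE.

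Of the 13 genes on the list of lipoprotein lipase and uptake 2 were higher (background 4.13%) and 1 lower (background 6.2%) at that level. Apoc3, an inhibitor of lipoprotein lipase that is made in liver and is on the liver list too, had 0.64 ± 0.15 SE and was higher on every 54 h array (limma adjusted p = 0.197). Fabp5 had 0.22 ± 0.10 SE, Slc27a1, a fatty acid transporter, -0.19 ± 0.07 SE without overlap, and Cd36 0.19 ± 0.12 SE; their other probe sets had changes of the same sign. Gpihbp1, which holds lipoprotein lipase at the capillary wall, had -0.03 ± 0.13 SE.

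**Figure D5:**
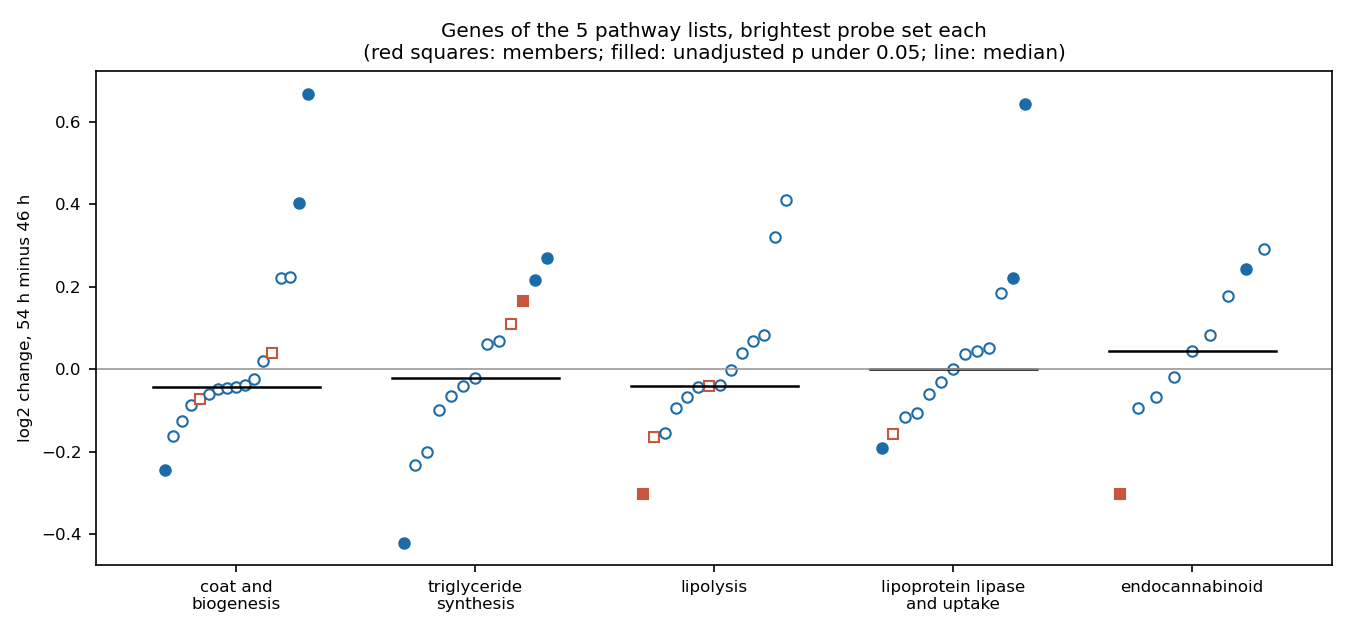
Log2 change from 46 h to 54 h of each gene past the filter on the 5 pathway lists, read from its brightest probe set; red squares are the lipid droplet genes described here, filled symbols had p under 0.05 in limma before adjustment, and bars are list medians. Medians lie between -0.04 and 0.05, and Mgll is the lowest point of the lipolysis list.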

How the data were processed

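The authors deposited 1 table of linear intensity values, 1 per probe set and array; RNA was extracted with a column kit and labelled with biotin, per the labels' protocols. How probes were summarised, corrected for background and normalized is not given in the sources used here. Of 45001 probe sets, 64 controls, 1 without values and 1 with a damaged value were left out. Values were used on the deposited scale, since array medians past the filter differed by 0.0728 on the log2 scale, under a limit of 0.1.

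Values were transformed as log2(intensity + 16), kept where the mean over the 6 arrays exceeded the 40th percentile, and fitted in limma 3.58.1 under R 4.3.3 (lmFit, eBayes with trend, two-sided, Benjamini-Hochberg over 26961 probe sets). Python 3.11.15 and matplotlib 3.10.9 made tables and plots. Named were the member genes, the up to 4 other genes of each pathway list with the smallest p, and the 5 genes most like the member that varied most at its brightest probe set. Plin4, Ucp1, Lep, Slc7a10, Acvr1c, Lipe, Gpihbp1 and single macrophage, liver, skeletal muscle and red cell markers were named outside this rule, after their values were seen. The members and lists were chosen with earlier results of these data known. The fit was tested on simulated data with known changes. It recovered 6% of 1.25-fold, 35.4% of 1.5-fold and 76.6% of 2-fold changes. A small change that did not pass is therefore not shown to be absent. Alternatives were other normalizations, filters, offsets, variance models, array weights, the replicate name as a block, a gene's mean over its probe sets and leaving out 1 array at a time.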

Additional observations from a re-analysis of the deposited data

How the results depend on the processing

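All values are 54 h minus 46 h from limma at an adjusted p of 0.05. The count of 31 called probe sets over the whole table became 47 with quantile normalization, 48 with the filter at the 60th percentile, 3 without an intensity trend, 61 with a robust fit, 3466 with array weights and 2 to 66 when an array was left out (2 without 46h replicate 1 or 54h replicate C, 18 without 46h replicate B, 61 without 54h replicate B and 66 without 54h replicate 1). The count of 1 called member probe set became 0 with arrays centred on medians, 0 without a trend, 5 with array weights (3 of Mgll and 2 of Dgat2), and 0 to 1 when an array was left out. The count of 0 called pathway genes became 11 with array weights and 0 to 1 when an array was left out (1, Gpam, without 54h replicate 1).

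Some member changes turned sign, none of them past the test. Over the fits that left out 1 array, the log2 change of Pnpla2 ran from -0.12 to 0.020 in 1428143_a_at and from -0.14 to 0.018 in 1428591_at, that of Cidec from -0.23 to 0.086 and that of Abhd5 1417566_at from -0.17 to 0.057. With array weights Cidec had 0.00278 and Plin2 -0.000529.

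Replicate names did not pair the arrays: deviations from the group means correlated at -0.06 for 1, -0.41 for B and -0.49 for C. With the replicate name as a block 45 probe sets passed over the whole table and 0 member probe sets, with Mgll 1426785_s_at at -0.42 and a limma adjusted p of 0.0587; in the pairing 0 arrays of 46 h correlated best with the 54 h array of the same name. Medians over all tested probe sets shifted by under 0.1 between scalings.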

Other observations

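Since monoacylglycerol lipase also degrades an endocannabinoid, the genes of that pathway were read as a list. All 9 were past the filter, and 0 passed limma over all probe sets. Before adjustment limma gave 1 that was higher (background 4.13%) and 1, Mgll, that was lower (background 6.2%) at 0.05. Daglb, a lipase that makes 2-arachidonoylglycerol, read 559, 609 and 647 units at 46 h and 672, 781 and 706 at 54 h, without overlap, and its log2 change was 0.24 ± 0.10 SE (limma adjusted p = 0.478). Napepld, which makes anandamide, had 0.29 ± 0.18 SE, the cannabinoid receptor gene Cnr1 0.18 ± 0.12 SE, and Abhd6, another hydrolase of 2-arachidonoylglycerol, -0.09 ± 0.08 SE with 0.08 ± 0.10 SE in its dimmer probe set. These 3 genes overlapped between the times.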
